A study of Gallus gallus with 24 samples.

Results

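The subunits of the oxidative phosphorylation chain were followed in the ileum of 24 broilers, with 13 genes carried by mitochondrial DNA and 69 by nuclear chromosomes, 82 of the 25339 genes in the table. Members were the named protein-coding genes of the mitochondrial chromosome, and nuclear genes whose symbol starts with NDUF, UQCR, ATP5 or COX4 to COX8, or is one of SDHA to SDHD. They were also selected on their level, a mean FPKM (reads scaled to gene length and library size) of at least 1 over the 24 birds, and the levels are therefore given as a description. All 82 named genes passed that limit and all were tested. The lowest were ATP5S at 6.05 FPKM and NDUFAF4 at 10.03 FPKM, and no symbol fell just outside. Genes on the Z and W sex chromosomes were not members, which left out ATP5ME, COX7C, ATP5A1Z, NDUFS4 and NDUFAF2, all on Z. NDUFV1, a member, is annotated as a pseudogene in the table.

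The birds were Arbor Acres broilers killed at 14 d of age, with 6 birds in each of 4 groups and 1 bird from each cage. Chicks of the SPM group ate a maize and soybean basal diet with 300 mg/kg magnolol and those of the SPH group the same diet with 300 mg/kg honokiol, and both were given 0.5 mL of a S. pullorum suspension by mouth at 5 d. The SP group had the basal diet and the same challenge. The CTL group had the basal diet and 0.5 mL of sterilized PBS, and was reared apart from the challenged cages, so challenge and place cannot be told apart in a comparison with CTL. Magnolol and honokiol are isomeric biphenols of magnolia bark that differ in the position of a hydroxyl and an allyl group on the linked rings.

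Reads on genes ran between 14393822 and 19435410 per bird. The labels give the tissue as ileum, though their extraction text names retinas and their source field intestinal flora. The enterocyte genes APOA1 and FABP1 averaged 5146 and 3943 FPKM over the 24 birds, and no found marker of the cell type lists stood at 0 in every bird. W chromosome transcripts, which mark females, were present in 4 SPM, 3 SPH, 3 SP and 6 CTL birds, so that the CTL group held no bird without them. A comparison with CTL therefore also mixes challenge with the share of birds that had W transcripts. For whole tissue, fewer cells of a type and less RNA per cell cannot be told apart.

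Oxidative phosphorylation passes electrons through complexes I to IV of the inner mitochondrial membrane and uses the proton gradient they build to make ATP at complex V. Complex I takes electrons from NADH, complex II from succinate, complex III passes them to cytochrome c, and complex IV hands them to oxygen. All complexes but II draw core subunits from mitochondrial DNA, which is transcribed inside the organelle as long polycistronic RNAs. The remaining subunits come from nuclear genes and are imported. In the small intestine the chain supplies the ATP for absorption along the villus.

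Most mitochondrial genes lay above every nuclear member. MT-CO1, the catalytic subunit of complex IV, averaged 8214 FPKM over the 24 birds and ranked 1 among all genes, with COX3, COII and ATP6 at ranks 2, 3 and 5. In all, 11 of the 13 were among the top 100 genes and no nuclear member was. The exceptions were ND6 with 239 FPKM, below some nuclear genes of complexes I, III, IV and V, and ATP8 with 309 FPKM, below some of complexes III, IV and V. By complex, the 7 genes of complex I lay between 239 and 1572 FPKM, CYTB of complex III had 1939 FPKM, and the 3 genes of complex IV lay between 5367 and 8214 FPKM. Among nuclear genes, complex IV held the highest levels, led by COX6C with 621 FPKM. The complex I assembly factors had the lowest median of the complexes, 14.6 FPKM, and ATP5S, which belongs to none of them, was the lowest single member. These levels are per gene length and describe a steady-state mRNA amount, not protein.

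Some mitochondrial rows share bases on the deposited map. ATP8 (MT positions 9085-9249) runs into ATP6 (9240-9923), ND4L (11196-11492) into ND4 (11486-12863), and COX3 (9923-10706) touches ATP6. ND6 (16184-16705) is the member on the opposite strand. Whether the counting used strand is not given in the sources used here, so values of neighbouring or antisense rows are not fully separate measurements.

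The mitochondrial share of reads was highest in the SPM group. The 13 genes together held 3.23, 3.71 and 5.12 percent of reads (lowest, median and highest bird) in SPM birds, 2.65, 3.16 and 3.76 percent in SPH birds, 2.6, 2.95 and 3.43 percent in SP birds and 2.58, 3.02 and 4.3 percent in CTL birds. The SPM range overlapped each other group, since the lowest SPM birds lay among the higher birds elsewhere. SPM replicate 6 was the highest of all 24 birds for each of the 13 genes. The 69 nuclear genes held much narrower and lower shares, 0.995, 1.038 and 1.08 percent in SPM birds, 0.939, 1.06 and 1.29 percent in SPH birds, 0.94, 0.995 and 1.2 percent in SP birds and 0.9752, 1.01 and 1.06 percent in CTL birds.

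**Figure D1:**
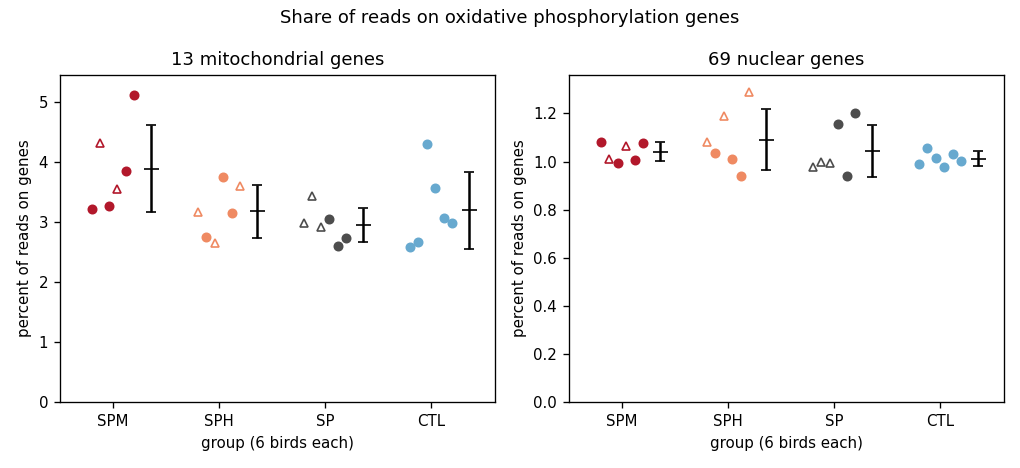
Share of reads on genes that fell on the 13 mitochondrial genes (left) and the 69 nuclear genes (right), in percent, for the SPM, SPH, SP and CTL groups. Filled circles are birds with W transcripts, open triangles birds without them, and the bars give the group mean and SD (n = 6). The highest SPM bird reached 5.12% on the left, where the SP birds lay between 2.60% and 3.43%.

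The study's limits for a called gene were 0.05 for the adjusted p and 0.5 for the size of the log2 fold change, in either direction. No member met both in any of the 6 comparisons fitted with limma. The background was the same, with 0% of the 17288 tested genes called in each comparison. The study itself, with DESeq2 and these limits, reported differentially expressed genes in SP vs CTL, SPH vs SP and SPM vs SP. Its list of the differentially expressed genes with the highest FPKM holds ND1 and ATP8 as its only members. It also holds ATP5ME, ATP5A1Z, COX7C and NDUFS4, which were left out here as genes of the Z chromosome. Calls here come from another test, so their absence does not mean that the study found none. With p left unadjusted and the fold limit kept, 993 genes (5.74%) passed in SPM vs SP, 323 (1.87%) in SPM vs SPH, 344 (1.99%) in SPM vs CTL, 699 (4.04%) in SPH vs SP, 320 (1.85%) in SPH vs CTL and 446 (2.58%) in SP vs CTL. Among them were 2 members in SPM vs SP (ATP8 and ND1), 1 in SPM vs CTL (ATP8) and 0 in the other comparisons. With limma-voom on the recovered reads, 0 genes were also called in each comparison. Separation of the birds was as rare: all 6 birds of the first group lay above all 6 of the second for 0.278% of genes in SPM vs SP, 0.0868% of genes in SPM vs SPH, 0.139% of genes in SPM vs CTL, 0.121% of genes in SPH vs SP, 0.0636% of genes in SPH vs CTL and 0.116% in SP vs CTL, and below them for 0.515% in SPM vs SP, 0.0752% in SPM vs SPH, 0.081% in SPM vs CTL, 0.243% in SPH vs SP, 0.0636% in SPH vs CTL and 0.156% in SP vs CTL. One member, described with the comparison against CTL birds, was among them. The differences that follow are therefore descriptions of size and direction, each with its error.

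The SPM and SP groups answer whether magnolol in the diet of challenged chicks went with another level of these genes. All 13 mitochondrial genes averaged higher in SPM birds than in SP birds, by a median log2 difference of 0.40 (range 0.22 to 0.69), against 0.01 over all tested genes, of which 51.9% were higher. Of the 13, 9 had an unadjusted p under 0.05, where 6.67% of all genes had one and were higher, but the smallest adjusted p was 0.129. The 13 genes rise and fall together from bird to bird and do not count as 13 separate observations.

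ATP8, a small membrane subunit of the ATP synthase, had 323, 389 and 571 FPKM in SPM birds, against 196, 237 and 345 FPKM in SP birds (lowest, median, highest). It showed the largest log2 difference of all members, 0.69 (SE 0.19), with an adjusted p of 0.129 by limma and a two-sided exact permutation p of 0.00649. The smallest p that 6 birds against 6 allow is 0.00216. Of the 6 SPM birds, 4 lay above all SP birds, and the groups overlapped. It is also the shortest member, at 165 bases, and shares bases with ATP6.

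ND1, the mitochondrial core subunit of complex I nearest the quinone site, had 1473, 1918 and 2569 FPKM in SPM birds, against 1052, 1317 and 1851 FPKM in SP birds. Its log2 difference was 0.53 (SE 0.16), with an adjusted p of 0.143 by limma and an exact permutation p of 0.0152. The groups overlapped through the SP bird at 1851 FPKM.

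MT-CO1 had 8773, 9659 and 11175 FPKM in SPM birds, against 5822, 7170.4 and 8924 FPKM in SP birds. Here 5 of 6 SPM birds lay above every SP bird, the log2 difference was 0.44 (SE 0.19), the adjusted p by limma was 0.274 and the exact permutation p was 0.00433. ND5, a proton-pumping subunit of complex I, gave the same count of 5 of 6, at 873, 1027 and 1426 FPKM in SPM birds against 602, 813 and 910.5 FPKM in SP birds, with an exact permutation p of 0.00649. ATP6, through which protons cross complex V, had 5174, 5971 and 8279.8 FPKM in SPM birds and 3645, 4253 and 6049.8 FPKM in SP birds, and an exact permutation p of 0.013.

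For the other subunits of complexes I, III and IV the log2 differences were alike in sign. They were 0.43 for ND3, 0.40 for ND4, 0.39 for MT-ND2, 0.34 for ND4L, 0.39 for CYTB, 0.34 for COII and 0.40 for COX3. Their exact permutation p values, two-sided, ran between 0.00866 for MT-ND2 and 0.0541 for ND4L. ND6, on the opposite strand, had the lowest difference at 0.22, with 190.3, 279 and 514 FPKM in SPM birds against 187, 244 and 274 FPKM in SP birds and an exact permutation p of 0.435. In it, 4 SPM birds lay above all SP birds and the other two lay low in the SP range.

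**Figure D2:**
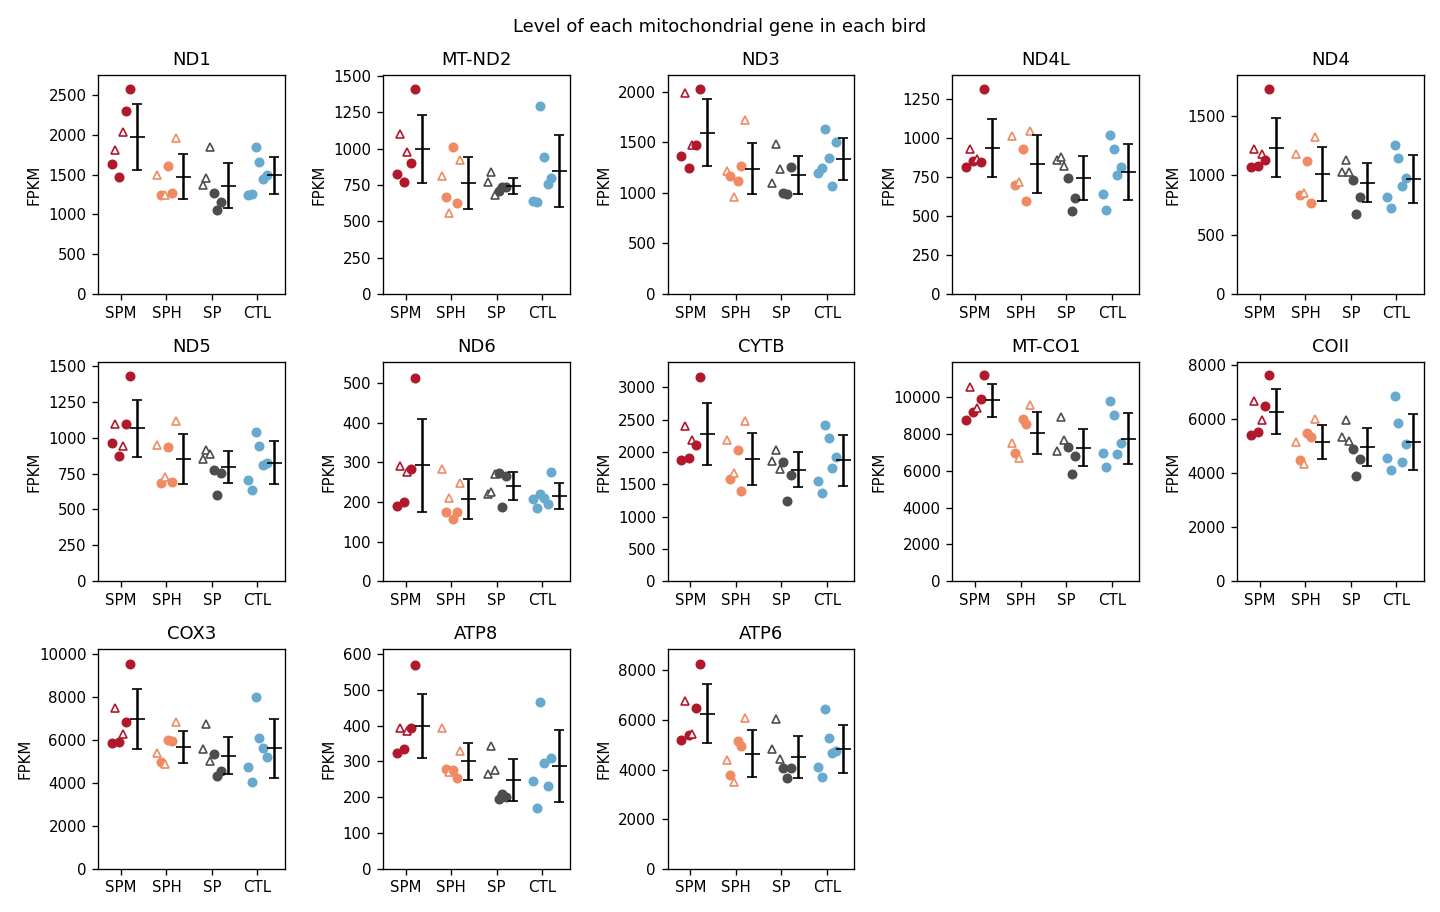
FPKM of each of the 13 mitochondrial genes in each bird, by group. Filled circles are birds with W transcripts, open triangles birds without them, and the bars give the group mean and SD (n = 6). SPM replicate 6 is the highest bird in all 13 panels, and ND6 is the panel in which the lowest SPM birds, at 190.3 and 199.9 FPKM, lie below the SP median.

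The count rested in part on single birds. Without SPM replicate 6, 13 of 13 genes were still higher in SPM birds and the median log2 difference was 0.31, with 4 at an unadjusted p under 0.05. Without SP replicate 5, that number was 5. Among the birds with W transcripts, 121 genes were called in SPM vs SP and 0 of them were members. Without SP replicate 2, ATP8 alone of the 82 members was called, at an adjusted p of 0.0455, together with 144 other genes.

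Beside the same comparison, markers of cell types differed too. The 11 enterocyte markers tested summed to 14986 to 27980.5 FPKM in SPM birds, against 11199 to 25639 FPKM in SP birds, and 9 of 11 were higher by a median log2 difference of 0.27. The smooth muscle markers gave 1675 to 3304 FPKM in SPM birds against 1338 to 2159 FPKM in SP birds, higher for 11 of 11. The markers of T cells were lower in SPM birds for 9 of 9 genes and summed to 157 to 290.1 FPKM, against 272 to 389.7 FPKM in SP birds. Those of proliferation were lower for 8 of 8 genes and summed to 131 to 204 FPKM in SPM birds, against 173 to 286 FPKM in SP birds. The markers of B cells were lower for 6 of 6 genes, by a median log2 difference of -1.47 with 4 at an unadjusted p under 0.05, and those of red blood cells were higher for 3 of 3, by 0.73. The T cell markers had 9 and those of proliferation 8 at that limit, all lower, where 8.73% of all genes were. Enterocyte and smooth muscle markers had 2 each, all higher, where 6.67% of all genes were. B cell markers summed to 83.5 to 175 FPKM in SPM birds and 97.9 to 614 FPKM in SP birds, macrophage and dendritic cell markers to 248 to 292 and 267 to 319.6 FPKM, goblet cell markers to 1336 to 3946 and 1198 to 4759 FPKM, and red blood cell markers to 203 to 649 and 145 to 360.0 FPKM. Their part in the mitochondrial difference was not tested.

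The nuclear members lay closer to 0 in this comparison. Of the 69, 47 were higher and 22 lower in SPM birds than in SP birds, with a median log2 difference of 0.03 and a range of -0.12 to 0.30. Without SP replicate 5, 32 of 69 were higher and the median was -0.0056, and 32 were higher after scaling to total reads. In all, 2 were higher at an unadjusted p under 0.05 and 0 lower, where 6.67% and 8.73% of all genes were. The median was 0.03 for the 31 genes of complex I, 0.06 for its 6 assembly factors, 0.02 for complex II, -0.02 for complex III, 0.08 for complex IV and 0.06 for complex V. The difference between the mitochondrial and the nuclear list was not tested.

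The 3 nuclear genes with the largest positive difference were NDUFAB1, the mitochondrial acyl carrier protein, NDUFB2, an accessory subunit of complex I, and ATP5F1D, the delta subunit of the ATP synthase. NDUFAB1 had 85.1, 95.1 and 117 FPKM in SPM birds, against 57.7, 80.8 and 104 FPKM in SP birds, a log2 difference of 0.30 (SE 0.12), an adjusted p of 0.242 by limma and an exact permutation p of 0.0476. NDUFB2 had 161, 223 and 248 FPKM in SPM birds and 152, 172 and 201 FPKM in SP birds, with 5 of 6 SPM birds above every SP bird and 1 low bird among them. Its adjusted p was 0.282 by limma. ATP5F1D averaged 210.0 ± 35.3 FPKM in SPM birds and 184 ± 44.4 FPKM in SP birds (SD, n = 6 each), within the spread of the birds.

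The largest negative differences were small. UQCRH, the hinge protein of complex III, averaged 375 ± 49.6 FPKM in SPM birds and 410.3 ± 68.5 FPKM in SP birds, a log2 difference of -0.12 (SE 0.13). The SPM mean includes a low bird, replicate 1 at 281 FPKM, where the other SPM birds had 374 to 424 FPKM. UQCRC1, a core protein of complex III, gave -0.09 and NDUFB10, an accessory subunit of complex I, -0.08. Each of them overlapped between the groups, with adjusted p values by limma of 0.701 for UQCRH, 0.736 for UQCRC1 and 0.736 for NDUFB10.

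**Figure D3:**
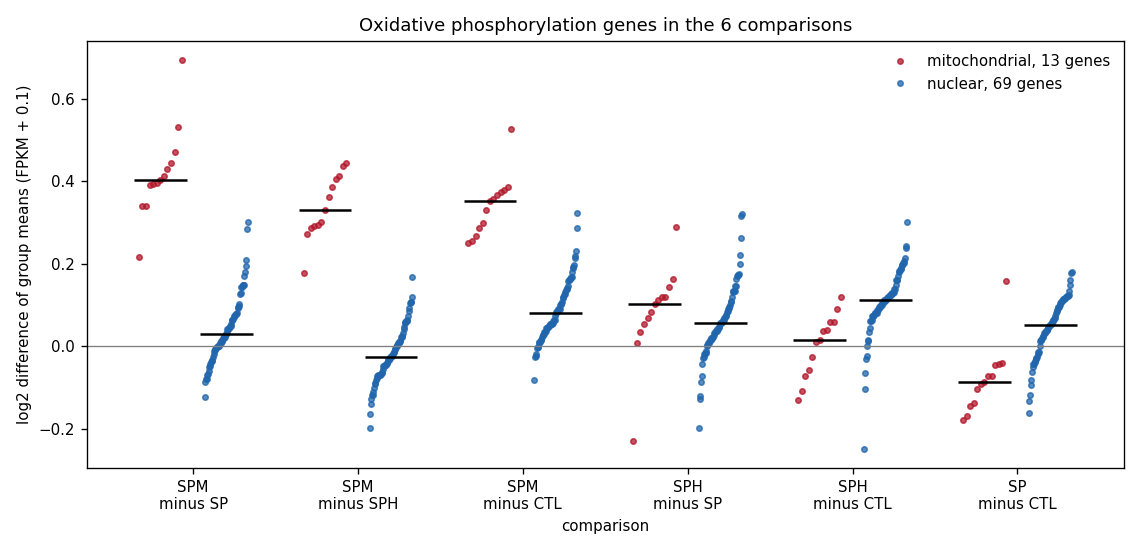
Log2 difference of group means for each of the 13 mitochondrial genes (red) and 69 nuclear genes (blue) in the 6 comparisons, each sorted by size. Black lines are medians. In the 3 comparisons that begin with SPM all red points lie above 0, and the blue medians lie between -0.03 and 0.08.

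Magnolol and honokiol, fed at the same dose of 300 mg/kg, were set against each other at 14 d as the only pair of compounds. All 13 mitochondrial genes averaged higher in SPM birds than in SPH birds, by a median log2 difference of 0.33, against 0.0047 over all genes, of which 51.2% were higher. At an unadjusted p under 0.05 there were 7 of them, where 2.24% of all genes had one and were higher. The adjusted p by limma was 0.996 for each of them. A difference between the compounds was therefore not shown at this size of group.

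ND6 gave the largest difference between the compounds, 0.45 (SE 0.19) on the log2 scale, with a 95% interval of 0.06 to 0.83. It had 190.3, 279 and 514 FPKM in SPM birds, against 156, 191 and 283 FPKM in SPH birds, and the exact permutation p was 0.0866. ATP6 differed by 0.44 (SE 0.20), with an interval of 0.03 to 0.84. It had 5174, 5971 and 8279.8 FPKM in SPM birds and 3505, 4662 and 6076 FPKM in SPH birds, with 3 SPM birds above every SPH bird and an exact permutation p of 0.0238. MT-CO1 differed by 0.30 (95% interval -0.10 to 0.70), at 9829.9 ± 892 FPKM in SPM birds and 8024 ± 1138 FPKM in SPH birds (SD, n = 6 each).

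The remaining 10 lay between 0.18 for ND4L (95% interval -0.19 to 0.54) and 0.41 for ND1 (95% interval 0.07 to 0.75). The count at an unadjusted p under 0.05 was unsteady. It was 0 without SPM replicate 6, 1 without SPH replicate 2, 2 without SPM replicate 2 or SPH replicate 3, 3 without SPH replicate 5, and 4 without SPM replicate 5 or SPH replicate 4. In the other direction it was 8 without SPH replicate 6 and 9 with limma-voom on the recovered reads. A fit of only the 2 groups compared gave 2. Beside it, proliferation markers were lower in SPM birds than in SPH birds for 8 of 8 genes, by a median of -0.42. Of them 6 had an unadjusted p under 0.05, where 2.33% of all genes had one and were lower. They summed to 131 to 204 FPKM in SPM birds and 178 to 285 FPKM in SPH birds. Enterocyte markers were higher for 10 of 11 (median 0.19), red blood cell markers for 3 of 3 (median 0.56) and goblet cell markers for 1 of 5 (median -0.43). Their part in the difference between the compounds was not tested.

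Nuclear members ran the other way between the compounds, by a small amount. Of 69, 25 were higher and 44 lower in SPM birds than in SPH birds, the median log2 difference was -0.03, and none had an unadjusted p under 0.05 in either direction, against 2.33% of all genes in the lower one. The number higher in SPM birds was 51 without SPH replicate 6, 16 without SPH replicate 5 and 14 without SPH replicate 4. NDUFS5, an accessory subunit of complex I, had the largest negative difference, -0.20 (SE 0.10), with a 95% interval of -0.41 to 0.01, at 67.3, 72.3 and 79 FPKM in SPM birds and 66.1, 90.4 and 95.1 FPKM in SPH birds. UQCRH gave -0.17 (95% interval -0.44 to 0.11) and COX5B, a zinc-binding subunit of complex IV, -0.14 (95% interval -0.50 to 0.22). The UQCRH value includes the low SPM replicate 1, at 281 FPKM. In the positive direction stood NDUFAF7, an arginine methyltransferase needed to build complex I, with 0.17, NDUFB10 with 0.12 and NDUFAF4, another assembly factor, with 0.11. All of these overlapped between the groups.

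Between SPH and SP birds, which share the challenge and differ by honokiol, the mitochondrial genes were nearer to each other. Of the 13, 12 averaged higher in SPH birds, the median log2 difference was 0.10, and 0 passed an unadjusted p under 0.05, where 3.21% of all genes did and were higher. Without SPH replicate 6, 8 of 13 were higher and the median was 0.019, and without SP replicate 5 it was 0.021. ATP8 was the highest at 0.29 (95% interval -0.11 to 0.69), at 252, 277 and 393 FPKM in SPH birds against 196, 237 and 345 FPKM in SP birds. ND6 was the one gene lower in SPH birds, by a log2 difference of -0.23 (95% interval -0.62 to 0.16). This comparison uses the same SP birds as SPM vs SP, so the 2 are not separate evidence. T cell markers were lower in SPH birds than in SP birds for 9 of 9 genes (median -0.54) and B cell markers for 6 of 6 (median -1.45), while smooth muscle markers were higher for 11 of 11 (median 0.21). What they contribute was not tested.

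Nuclear members were mostly higher in SPH birds than in SP birds, 57 of 69 by a median log2 difference of 0.06, against 51.6% higher among all genes. That count was 27 without SPH replicate 6 and 34 without SP replicate 5. COX5B had 337, 548 and 627 FPKM in SPH birds, against 299.8, 402 and 562 FPKM in SP birds, a log2 difference of 0.32 (SE 0.17) and an adjusted p of 0.634 by limma. NDUFAB1 followed with 0.31 (SE 0.12), at 98.2 ± 14.5 FPKM in SPH birds and 79.5 ± 15.6 FPKM in SP birds, and NDUFS5 with 0.26 (SE 0.10), at 84.5 ± 12.3 and 70.7 ± 12.5 FPKM in the same order (SD, n = 6 each). Both had an adjusted p of 0.453 by limma. At an unadjusted p under 0.05 there were 3 higher and 1 lower members, against 3.21% and 5.62% of all genes in those directions. The lowest were NDUFB10 with -0.20, NDUFAF1, an assembly factor of complex I, with -0.13 and NDUFAF4 with -0.12. For NDUFAF1, 4 of 6 SPH birds lay below every SP bird, at 26.2, 27.6 and 30.2 FPKM in SPH birds against 28.1, 30.9 and 32.6 FPKM in SP birds. Its exact permutation p was 0.0346, unadjusted, and the gene was picked by its difference in this same comparison. The smallest adjusted p by limma among the complex I assembly factors was 0.593.

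The SP and CTL groups differed by challenge and rearing place, and 3 SP but 6 CTL birds had W transcripts. The differences between them were small and of mixed sign. Of the 13 mitochondrial genes, 12 averaged lower in SP birds by a median log2 difference of -0.09, with no unadjusted p under 0.05, where 3.31% of all genes had one and were lower. The exception was ND6, at 240.1 ± 35.1 FPKM in SP birds and 215 ± 31.7 FPKM in CTL birds. Leaving out CTL replicate 3 brought the number of mitochondrial genes higher in SP birds to 6, leaving out SP replicate 5 to 5 and leaving out CTL replicate 4 to 2. Among birds with W transcripts alone the mitochondrial median was -0.24. ND3 was the lowest, with a difference of -0.18 (95% interval -0.50 to 0.15), at 986, 1168 and 1485 FPKM in SP birds against 1068, 1293 and 1632 FPKM in CTL birds. In the same comparison T cell markers were higher in SP birds for 9 of 9 genes, by a median of 0.49. Of them 7 had an unadjusted p under 0.05, where 2.87% of all genes had one and were higher. They summed to 272 to 389.7 FPKM in SP birds and 178 to 362 FPKM in CTL birds. Smooth muscle markers were lower for 11 of 11, by -0.32 with 5 at an unadjusted p under 0.05, and summed to 1338 to 2159 FPKM in SP birds and 1988 to 2859 FPKM in CTL birds. Proliferation markers were higher for 8 of 8 (median 0.27). The part of these markers was not tested.

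Nuclear members were higher in SP birds than in CTL birds for 51 of 69 genes, by a median log2 difference of 0.05, against 48.7% higher among all genes. The count was 35 and the median 0.0011 with W transcripts as a covariate, while the count was 59 among birds with W transcripts alone. Count and median were 38 and 0.0094 without SP replicate 6, and 59 and 0.11 without SP replicate 5. The 8 genes of complex III were all higher, by a median of 0.10, and 9 of the 10 of complex V, by 0.09. None had an unadjusted p under 0.05, which 2.87% of all genes had in the higher direction, and 4 did without SP replicate 5. COX7A2, a small subunit of complex IV, had the largest difference, 0.18 (SE 0.13), at 166, 219 and 270.3 FPKM in SP birds against 178, 193 and 214 FPKM in CTL birds. NDUFS6, which carries a zinc site of complex I, gave 0.18, with 5 of 6 SP birds above every CTL bird and SP replicate 5 below all of them. ATP5S, a coupling factor and no subunit, gave 0.16. The most negative were NDUFAF7 with -0.16, COX5B with -0.13 and NDUFB7 with -0.12.

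The supplemented groups were also set against CTL birds, in comparisons that share those birds with SP vs CTL. In SPM birds all 13 mitochondrial genes averaged higher than in CTL birds, by a median log2 difference of 0.35, with 4 at an unadjusted p under 0.05, where 2.46% of all genes had one and were higher. That number was 1 without SPM replicate 6, CTL replicate 1 or CTL replicate 2, 2 without SPM replicate 5, and 9 without CTL replicate 3. With W transcripts as a covariate it was also 1. In SPH birds 8 of the 13 were higher than in CTL birds and the median was 0.02, against 47.6% higher among all genes. That count was 4 without CTL replicate 1, 0 without CTL replicate 2, 3 without SPH replicate 6, and 1 with W transcripts as a covariate. Nuclear members were higher than in CTL birds for 62 of 69 genes in SPM birds, by a median of 0.08, and for 64 in SPH birds, by 0.11, where 48.7% and 47.6% of all genes were higher in SPM and SPH birds. Scaled to total reads, 39 were higher in SPM vs CTL, and without SPH replicate 6 the median in SPH vs CTL was 0.048. Among birds with W transcripts, 18 nuclear members were higher in SPH vs CTL. Beside these, proliferation markers were lower in SPM birds than in CTL birds for 8 of 8 genes (median -0.31), enterocyte markers were higher for 11 of 11 (median 0.18), and in SPH birds smooth muscle markers were lower than in CTL birds for 10 of 11 (median -0.12). In SPH vs CTL, 5 nuclear members were higher and 1 lower at an unadjusted p under 0.05, against 1.84% and 1.8% of all genes in those directions, and without SPH replicate 6 none was higher. For ATP5PD, a stalk subunit of complex V chosen after its values were seen, all 6 SPM birds at 163, 173 and 203 FPKM lay above all 6 CTL birds at 149, 158 and 163 FPKM, as in 0.139% of all genes. Its adjusted p by limma was 0.931.

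In group means, SPM was the highest of the 4 groups for all 13 mitochondrial genes and SP the lowest for 12 of them, SPH being the lowest for ND6. Among nuclear members SPH was the highest group for 45 and SPM for 15, and CTL was the lowest for 47. The rank of SPH leaned on SPH replicate 6, the highest of 24 birds for 50 of the 69 nuclear genes. Without that bird, 51 were higher in SPM than in SPH birds, and 27 were higher in SPH than in SP birds. CTL was also the only group in which every bird had W transcripts. Among birds with W transcripts, 65 were higher than in CTL birds in SPM, 59 in SP and 18 in SPH birds. For MT-CO1, SPM lay above its neighbour SPH by more than either SD (exact permutation p = 0.0173, adjusted p by limma 0.996), while SPH, CTL and SP lay within an SD of each other. The means were 9829.9 ± 892 FPKM in SPM birds, 8024 ± 1138 in SPH birds, 7258 ± 1023 in SP birds and 7742 ± 1368 in CTL birds (SD, n = 6 each).

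The nuclear levels of the most abundant subunits of each complex show how close the groups were. COX6C and COX7B, small subunits of complex IV, averaged 665 ± 56.1 and 543 ± 26.1 FPKM in SPM birds, 626 ± 126 and 532 ± 96.1 FPKM in SPH birds, 603 ± 60.3 and 517 ± 64.7 FPKM in SP birds, and 591 ± 29.2 and 509.6 ± 14.4 FPKM in CTL birds. The catalytic beta subunit of complex V, ATP5F1B, averaged 320.2 ± 24.1 FPKM in SPM birds, 333 ± 62.4 in SPH birds, 302 ± 45.4 in SP birds and 286 ± 28.8 in CTL birds. ATP5MC1, which encodes the c ring, and ATP5F1C, the gamma shaft, kept to between 216 and 319 FPKM in group means. In complex I, NDUFA13, NDUFB7 and NDUFB8 had group means between 214 and 318 FPKM.

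Complex II is made by nuclear genes alone. SDHD and SDHC, its membrane anchors, and SDHB, its iron-sulfur subunit, averaged 232, 129.7 and 150 FPKM in SPM birds, 224, 138 and 153 FPKM in SPH birds, 206, 126 and 150.2 FPKM in SP birds, and 209, 129 and 144 FPKM in CTL birds. In complex III, UQCR10, a small subunit, and UQCRFS1, the Rieske iron-sulfur protein, had group means between 172 and 271 FPKM. The assembly factors NDUFAF1, NDUFAF8 and NDUFAF5 had group means between 15.7 and 30.5 FPKM.

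Most members of each genome varied together from bird to bird. The complex I assembly factors and a few subunits correlated weakly or negatively with the other nuclear genes. Over the 24 birds, with group means removed, the median Pearson correlation was 0.80 over the 78 pairs of mitochondrial genes, 0.54 over the 2346 pairs of nuclear genes and 0.14 over the 897 mixed pairs. These correlations describe genes of the same libraries and share their depth and scaling. Within the nuclear complexes the median was 0.78 for complex V, 0.72 for complex II, 0.71 for complex III, 0.61 for complex IV and 0.54 for complex I. The lowest nuclear pair had -0.69. Among the assembly factors, the median with the other nuclear genes was -0.39 for NDUFAF5, -0.38 for NDUFAF7, -0.28 for NDUFAF1 and -0.02 for NDUFAF8. It was 0.11 for NDUFAF6 and 0.26 for NDUFAF4, and 0.05 for NDUFA4, placed with complex IV. The complex I subunits NDUFB6 and NDUFB2 had 0.22 and 0.23, below NDUFAF4. ND6 was the loosest mitochondrial gene, with a median correlation of 0.56 with the other 12.

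Single birds stood out in the nuclear set. A score, the mean over the members of the log2 value less its 24-bird mean, gave -0.05 to 0.12 in SPM birds, -0.14 to 0.37 in SPH birds, -0.24 to 0.18 in SP birds and -0.10 to -0.02 in CTL birds. SPH replicate 6 was the highest of 24 birds for 50 of the 69 nuclear genes and SP replicate 5 the lowest for 33. The CTL birds lay closest together, with an SD of 0.027 against 0.067 in SPM, 0.19 in SPH and 0.14 in SP birds. For the mitochondrial genes the score ran 0.03 to 0.74 in SPM birds, -0.29 to 0.28 in SPH birds, -0.46 to 0.12 in SP birds and -0.42 to 0.35 in CTL birds.

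**Figure D4:**
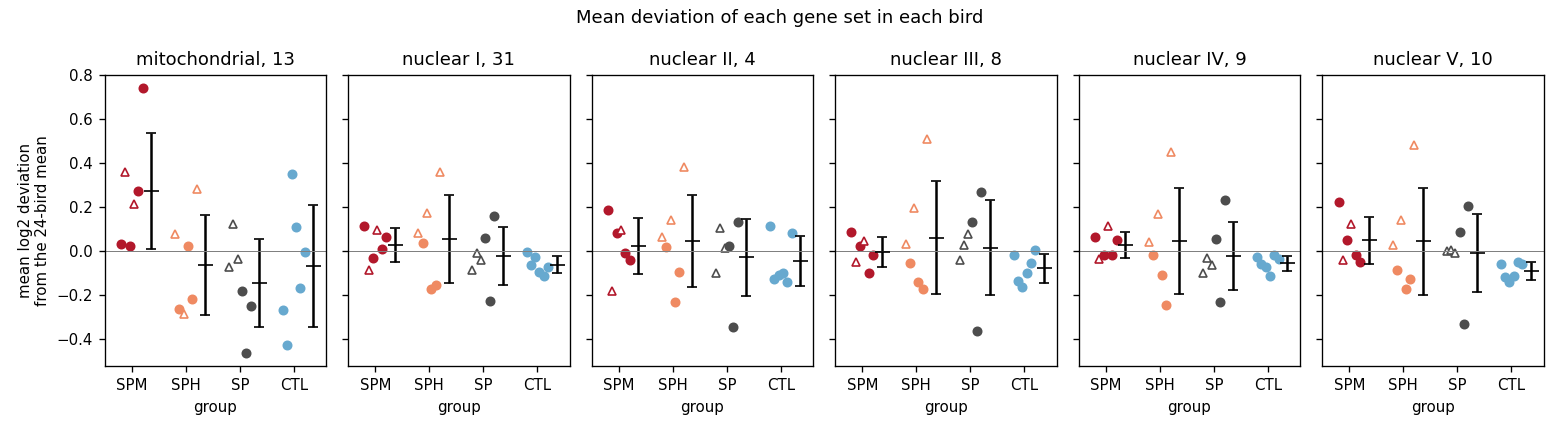
Mean log2 deviation from the 24-bird mean in each bird, for the 13 mitochondrial genes and for the nuclear genes of complexes I to V (the number in each title is the number of genes), by group. Filled circles are birds with W transcripts, open triangles birds without them, and the bars give the group mean and SD (n = 6). The 3 SPH birds without W transcripts are the highest SPH birds for the nuclear genes of each of complexes I to V.

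W transcripts divided the SPH birds in the nuclear set. The 3 SPH birds without them had nuclear scores of 0.052 to 0.37 and the 3 with them -0.14 to 0.00097. In SP birds the 3 without W transcripts had -0.067 to -0.0065 and the 3 with them -0.24 to 0.18. Among birds with W transcripts alone, the nuclear median in SPH vs SP was -0.11 with 10 of 69 genes higher, and in SPM vs SPH 0.12 with 63 of 69 higher, both of opposite sign to the values over all birds. The mitochondrial medians among these birds were 0.56 in SPM vs SP and 0.42 in SPM vs SPH, with 13 of 13 genes higher in each. They include SPM replicate 6 and SP replicate 5, the birds with the highest and lowest mitochondrial score (0.74 and -0.46). The mean score was 0.27 in the 4 SPM and -0.30 in the 3 SP birds with W transcripts. In those without, it was 0.29 in 2 SPM and 0.0050 in 3 SP birds. The nuclear median in SPH vs CTL was -0.04 among birds with W transcripts, with 18 of 69 genes higher, and the mitochondrial median in SP vs CTL was -0.24. An interaction between diet and W transcripts, added after the values were seen, was tested by limma over all genes. In SPH vs SP the smallest adjusted p was 0.22 among the 69 nuclear members and 0.32 among the 13 mitochondrial members. In SPM vs SP it was 0.54 and 0.65 in that order. Of the 17288 genes, 0 had an adjusted p under 0.05 in either comparison. At an unadjusted p under 0.05 there were 14 nuclear and 1 mitochondrial members in SPH vs SP, and 1 and 0 in SPM vs SP. The share of all genes at that limit was not worked out, so these counts are no result about the members.

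Genes around the chain were described by counts. The genes for upkeep and transcription of mitochondrial DNA, such as SSBP1, a single-strand binding protein, and TFAM, its main transcription and packaging factor, were lower in SPM birds than in SP birds for 7 of 11, by a median log2 difference of -0.12, with 3 lower at an unadjusted p under 0.05, where 8.73% of all genes were. TFAM averaged 39.5 FPKM in SPM birds and 45.9 FPKM in SP birds, and SSBP1 49.2 and 57.1 FPKM in that order. Proteins of the mitochondrial ribosome, of which MRPL12 and MRPL24 were the most abundant, were lower for 49 of 64 in SPM vs SP, by a median of -0.07, with 10 lower at an unadjusted p under 0.05, and for 50 of 64 in SPM vs SPH. The medians of these lists in SPM vs SP were below 0, where that of the mitochondrial members was above it. Within them, 4 of 11 and 15 of 64 genes were higher in SPM birds. Their part in the mitochondrial difference was not tested. None of their genes was called.

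The nuclear regulators, led in abundance by YY1 and GABPA, had a median of -0.01 over 8 genes in SPM vs SP, and cytochrome c with the adenine nucleotide and phosphate carriers and pores, led by SLC25A6 and SLC25A3, -0.02 over 8. Assembly factors of complexes III and IV, led by COX17 and COA5, had -0.03 over 20. For the uncoupling and antioxidant genes, led by GPX4 and TXN2, it was 7.1e-05 over 6. Genes of fatty acid oxidation, led by HADH and ETFA, were higher for 9 of 11, with a median of 0.08. Those of glycolysis, led by LDHA and GAPDH, were lower for 12 of 15, with a median of -0.06 and 3 lower at an unadjusted p under 0.05, where 8.73% of all genes were. The cytosolic ribosomal proteins, led by RPL27A and RPL34, were lower for 59 of 64, with a median of -0.07.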

How the data were processed

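RNA of the ileum was sequenced on an Illumina platform in 24 birds, 6 each in the SPM, SPH, SP and CTL groups, taken from the labels. The authors deposited FPKM values with gene length and position, after adapter removal and mapping, and named DESeq2 as their own test. The submitters' notes name Bowtie 0.12.2 and the builds mm8 and GRCg6a without roles, of which only GRCg6a is a chicken build. The library kit differs between the labels and the methods, and the counting program is not given in the sources used here. Each FPKM times gene length was divided by a step fitted to the values of the same bird. The result, taken as the recovered reads, was a whole number within 0.001 for all 440917 values above 0. The members and gene lists were chosen with earlier results of these data known.

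The 17288 genes whose mean reached 0.1 FPKM were fitted with limma 3.58.1 in R 4.3.3 on log2(FPKM + 0.1), with 1 mean per group and a variance trend. Fold changes on this scale understate the change of low genes. p values were adjusted by Benjamini-Hochberg over all genes of a comparison. Exact permutation tests (two-sided, 924 regroupings) were added for named genes, which were all mitochondrial members, the 3 most abundant nuclear members of each complex, the 3 largest positive and negative differences in SP vs CTL, SPH vs SP, SPM vs SP and SPM vs SPH, any called member, the 2 nearest the level limit, and the 2 most abundant genes of each other list, of which 1 list is not reported here. Alternatives covered pseudocounts, filters, scaling, pairing by replicate number, W transcripts, gene length, voom, array weights, and leaving out each bird. The fit was tested on simulated data. Reference sequences of the genes were not used here. The exact permutation p values rest on the spread of a gene between birds of separate cages. Those of limma, and its SE, also draw on the variance trend over genes of similar level. They can therefore differ from what the birds of 1 gene alone would give. The permutation p values were not adjusted for the number of genes, and some genes were named for their difference in the same comparison.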

Additional observations from a re-analysis of the deposited data

Results flagged for a closer look

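Across 42 members and 4 sums, each group of 6 birds was examined for a bird far from the others. Of the 184 groups examined, 14 were marked, where chance alone marks about 1 in 20. The marks are not separate observations, since many of the genes vary together. SPM replicate 6 was set apart by its high values for ND4 (1722 FPKM, the other SPM birds 1068 to 1225), ND4L (1311 FPKM, the others 811 to 926), ND6 (514 FPKM, the others 190.3 to 290.4) and ATP8 (571 FPKM, the others 323 to 394). SPH replicate 6 stood high for SDHD (313 FPKM, the others 177 to 223) and COX7A2 (351 FPKM, the others 176 to 234), and SP replicate 5 stood low for ATP5F1C (183 FPKM, the others 232 to 249). SP replicate 6 was high for ATP5S (8.16 FPKM, the others 5.67 to 6.01). In SPM birds, replicate 5 was high for NDUFB7 (308 FPKM, the others 245 to 259), replicate 1 low for UQCRH (281 FPKM, the others 374 to 424) and replicate 2 low for ATP5F1B (275 FPKM, the others 318 to 342). In CTL birds, replicate 5 was low for NDUFS6 (52.6 FPKM, the others 56.1 to 57.9), and replicate 6 low for NDUFB10 (101 FPKM, the others 118 to 126) and ATP5F1D (136 FPKM, the others 187 to 210.0).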

How the results depend on the processing

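A member was called under a single alternative, SPM vs SP without SP replicate 2 (ATP8), so that leaving out 1 bird gave between 0 and 1 called members there. At an unadjusted p under 0.05 with the fold limit, 2 members passed in SPM vs SP (ATP8 and ND1) and 1 in SPM vs CTL (ATP8), where 5.74% and 1.99% of all genes did. Over the alternatives the number in SPM vs SP ran between 1 (among others without SPM replicate 6) and 6 (birds with W transcripts). In SPM vs CTL it ran between 0 (among others with W transcripts as a covariate, scaled to total reads or without SPM replicate 6) and 1. Among birds with W transcripts, 121 of all genes were called in SPM vs SP, against 0 in the main fit. No share of all genes is given beside the counts at an unadjusted p under the alternatives, so these counts are no result about the members. Nuclear medians moved by more than the spread between birds among birds with W transcripts, to 0.12 in SPM vs SPH and -0.039 in SPH vs CTL, and, scaled to total reads, to 0.022 in SPM vs CTL, where the median of all genes stood at -0.06. The mitochondrial median in SPM vs SP ran between 0.29 (quantile normalization) and 0.56 (birds with W transcripts), with 13 of 13 genes higher throughout, and 5 of them had an unadjusted p under 0.05 after quantile normalization. Signs of single genes were compared only with another pseudocount, the replicate block, W transcripts as a covariate, and birds with W transcripts alone. Of these settings the last alone turned the sign of COX5B, to 0.041 for SP vs CTL, -0.082 for SPH vs SP and 0.11 for SPM vs SPH. It also turned UQCRC1, to 0.019 for SPM vs SP, and NDUFAF7, to -0.0098 in SPM vs SPH. Scaled to total reads, the nuclear median in SPM vs SP was -0.01. The cause of these moves was not tested. The replicate numbers did not pair the birds (same-numbered birds correlated between -0.32 and 0.36, and 1 of 24 correlated best with its own number), and with the replicate block 0 members were called in each comparison and 8 of the 13 mitochondrial genes had an unadjusted p under 0.05 in SPM vs SP. The number of birds limits the precision, with a median SE by limma of 0.18 (log2) for mitochondrial and 0.10 for nuclear members. This SE also depends on the variance trend.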

Other observations

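The mitochondrial chromosome also carries rows that are not members. An unnamed row on the minus strand at positions 101-1227, which was chosen after its values were seen, averaged 107 ± 34.0 FPKM in SPM birds, 70.6 ± 17.7 FPKM in SPH birds, 67.7 ± 28.0 FPKM in SP birds and 55.3 ± 19.4 FPKM in CTL birds (SD, n = 6 each). Its log2 difference was 0.71 in SPM vs SP, with an adjusted p by limma of 0.20, and 0.96 in SPM vs CTL, with an adjusted p by limma of 0.90. The ribosomal RNA row at positions 1297-2272 averaged 648 ± 106 FPKM in SPM birds, 545 ± 118 FPKM in SPH birds, 571 ± 120 FPKM in SP birds and 665 ± 123 FPKM in CTL birds, and the one at 2346-3966 averaged 545 ± 212 FPKM in SPM birds, 488 ± 149 FPKM in SPH birds, 510 ± 247 FPKM in SP birds and 460 ± 137 FPKM in CTL birds.

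The 5 genes left out on the Z chromosome averaged lowest in CTL birds, the group in which every bird had W transcripts. ATP5ME averaged 283 FPKM in SPM birds, 339 FPKM in SPH birds, 292 FPKM in SP birds and 183 FPKM in CTL birds. COX7C averaged 269.5 FPKM in SPM birds, 325 FPKM in SPH birds, 296 FPKM in SP birds and 190.0 FPKM in CTL birds. ATP5A1Z, NDUFS4 and NDUFAF2 had the same group at the bottom.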
